A study of Mus musculus with 13 samples.

Results

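Integrins are cell-surface receptors for the extracellular matrix, and laminins are the trimeric proteins that, with type IV collagen, form the basement membrane on which endothelial cells (ECs) sit. The genes described here are all 37 symbols of the integrin alpha (Itga), integrin beta (Itgb) and laminin (Lama, Lamb, Lamc) series in the gene lists of the files, namely 18 integrin alpha chains, 8 integrin beta chains, 5 laminin alpha, 3 laminin beta and 3 laminin gamma chains. The 37 were listed in both sets of libraries, among 24984 genes in the tumor set and 24421 in the sprout set. Members were taken by name and not by any value, and the set was chosen with earlier results of these data known. Both sets were RNA-Seq of mouse cells and both asked what changes in ECs when Apelin, a secreted peptide that stimulates angiogenesis, is missing.

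Tumor ECs were sorted as CD31+/CD105+ cells, 100 per library, from tumors of the mouse mammary carcinoma line E0771 at day 25 after orthotopic injection into C57BL/6J mice. In the Apelin wild-type group (n = 6 libraries) E0771 cells with the control hairpin shRenilla grew in Apln+/+ mice, and in the Apelin-depleted group (n = 3) E0771 cells with shApln grew in Apln-/- mice, so that tumor cells and host lost Apelin together and the injected cells of both groups carried a hairpin. Sprout ECs were sorted as CD31+ cells from embryoid bodies that had been placed in a collagen I gel on day 8 with 30 ng/ml VEGF. The Apln STOP libraries (n = 2) carry the gene trap of a haploid embryonic stem cell line in the sense orientation, and the Apln GO libraries (n = 2) come from sister cells in which Cre had turned the same trap to antisense. By the study's legends GO cells also received 1000 nM Apelin peptide and STOP cells DMSO, so that genotype and peptide cannot be told apart, and the trap line is a single integration. The legends give the same n of 6 and 3 for the tumor groups beside the cells injected, and neither they nor the labels say whether each library is a separate mouse or culture, so p-values measure the spread between these libraries, which may be technical.

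Each integrin is a pair of 1 alpha and 1 beta chain, and the pair sets what is bound. The collagen receptors join alpha1 or alpha2 to beta1, the classic fibronectin receptor is alpha5 beta1, the alphav chain pairs with beta3 or beta5 to bind vitronectin and other proteins with an RGD motif, and alpha3 and alpha6 bind laminins with beta1 or, for alpha6, beta4. Each laminin is 1 alpha, 1 beta and 1 gamma chain. The endothelial basement membrane is known for the alpha4 and alpha5 laminins with beta1 or beta2 and gamma1, whereas the alpha1 chain belongs to the basement membranes of the early embryo.

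The libraries held 4661044 to 14455093 counts in the tumor set and 12327030 to 16804071 in the sprout set. Apln itself lay between 416 and 1033 CPM (counts scaled to the TMM-normalized library size) in the wild-type and between 2.44 and 12.1 CPM in the depleted tumor libraries (log2 fold change -6.70 ± 0.59 SE, adjusted p = 6.13e-05, edgeR; exact permutation p = 0.0238, two-sided, the smallest that 3 against 6 libraries allow). In the sprout set Apln was 58.2 and 65.9 CPM in GO and 66.1 and 80.2 CPM in the libraries labelled STOP (log2 fold change 0.24 ± 0.16, adjusted p = 0.367, edgeR), so the counts did not show the loss that the label names, and each STOP value below is that of a library labelled STOP. The paper states that the sense trap disrupted Apelin mRNA, and cites RT-qPCR of the stem cells before sprouting. All 12 endothelial markers had counts in every library. In tumor ECs they summed to 8480 to 12336 CPM in wild-type and 10781 to 14149 CPM in depleted libraries. In sprout ECs they summed to 2565 and 2475 CPM in GO and to 644 and 891 CPM in STOP, while 8 pluripotency markers summed to 2077 and 3497 CPM in GO and 5553 and 5419 CPM in STOP. In bulk libraries fewer cells of a type and less RNA per cell cannot be told apart, and the part of this difference in the sprout results below was not tested. In GO replicate 2 and in both STOP libraries the pluripotency sum was above the endothelial sum. The name sprout ECs therefore stands for the CD31+ sort, and levels, ranks and shares below are those of all RNA in it. Fibroblast markers stood apart in single libraries, at 5291 CPM in wild-type replicate 2 against 41.6 to 205 CPM in the other tumor libraries, and in the sprouts at 3012 CPM in GO replicate 1 and 3066 CPM in STOP replicate 2 against 682 CPM in GO replicate 2 and 570 CPM in STOP replicate 1.

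The 3 highest chains of the integrin alpha, integrin beta and laminin classes were ranked by their mean over all libraries of a set, both groups together. Itga6, Itga5, Itgb1, Itgb3, Lamb1 and Lamc1 were among them in both sets, and the other places differed between the sets. Levels of different genes were compared per transcript length, as CPM per kb in tumor ECs and as the deposited TPM in sprout ECs. In tumor ECs Itgb1, the partner of most alpha chains, led the beta chains at a mean of 195 CPM per kb (range 133 to 241 over 9 libraries). Itgb3 followed at 37.8 (26.8 to 49.6), with no overlap. The range of Itgb4, at 18.4 (7.13 to 33.2), overlapped that of Itgb3, but Itgb3 was the higher within each library. Itgb5 was only 3.27 CPM per kb (0.0529 to 14.0). Among alpha chains Itga6 at 76.9 CPM per kb (47.2 to 106) and Itga5 at 74.3 (53.7 to 107) did not differ beyond their spread, and Itga3 followed at 34.5 (21.2 to 50.6). Among laminins Lama4, Lamb1 and Lamc1 lay within each other's range, at means of 84.5, 80.8 and 79.8 CPM per kb, and these 3 chains form the alpha4 beta1 gamma1 laminin. Lamb2 at 22.2 CPM per kb (13.7 to 48.3) and Lama5 at 20.2 (12.98 to 32.8) came next, all other laminin chains had means under 2 CPM per kb, and Lama1 was the last of the 11 at 0.295.

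In sprout ECs Itgb5 ranked above Itgb3 and Lama1 joined the highest laminins. Itga6 at 71.8 TPM and Itga5 at 74.35 TPM were the highest alpha chains in GO and overlapped. In STOP the means were 55.7 TPM for Itga6, 38.3 TPM for Itgav and 33.8 TPM for Itga5, and Itgav lay above Itga5 in both libraries. Itgb1 led the beta chains at 229 TPM in GO and 165 TPM in STOP, ahead of Itgb5 at 36.0 and 35.1 TPM and Itgb3 at 16.5 and 7.52 TPM. In STOP Itgb7 lay level with Itgb3, at mean shares of 3.67% and 3.50% of the summed beta chain TPM, with overlapping libraries. Lamc1 at 132 TPM in GO and 89.7 TPM in STOP and Lamb1 at 156 and 58.9 TPM were the highest laminins in each of the 4 libraries. The embryonic chain Lama1 led the alpha chains in both GO libraries, at a mean of 56.0 TPM. In STOP replicate 1 it was 11.2 TPM and Lama5 33.9 TPM, and in STOP replicate 2 it was 20.65 TPM and Lama5 17.5 TPM. The plots of the chains in each library show CPM, not divided by length, so heights compare libraries and not genes.

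**Figure D1:**
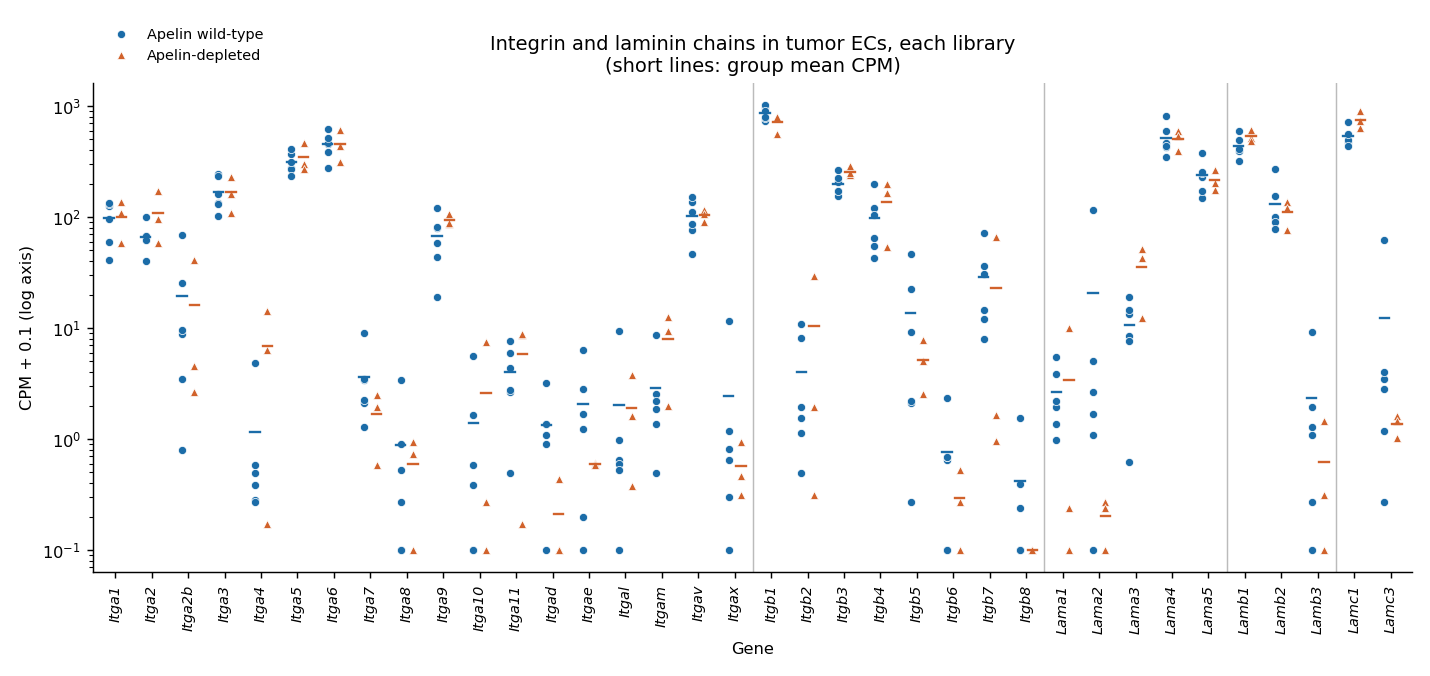
CPM + 0.1 on a log axis of 36 chains in the 9 tumor EC libraries (circles, Apelin wild-type; triangles, Apelin-depleted; short lines, group means; vertical lines separate the classes). The abundant chains Itgb1, Itga6, Lama4, Lamb1 and Lamc1 lie within a narrow band in both groups, and the chains under about 10 CPM spread over several powers of 10.

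**Figure D2:**
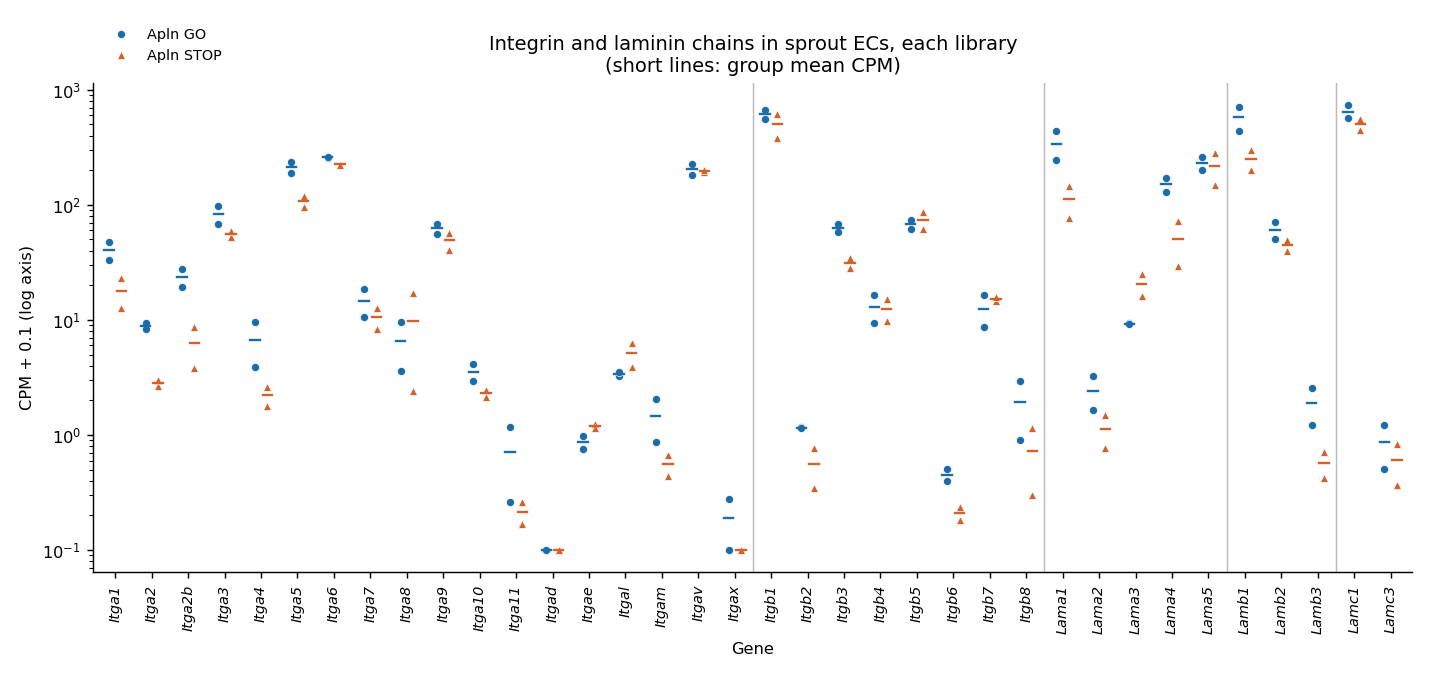
CPM + 0.1 on a log axis of 36 chains in the 4 sprout EC libraries (circles, Apln GO; triangles, Apln STOP; short lines, group means; vertical lines separate the classes). Itga2, Itgb3, Lama1, Lama4 and Lamb1 sit lower in both STOP libraries, Lama3 sits higher in both, and Itgav and Itgb5 overlap.

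In sprout ECs 32 of the 37 chains passed the filter on low counts. Past both thresholds (adjusted p under 0.05 and an absolute log2 fold change over 1, edgeR), 2 of the 32 fell in STOP, Itga2 and Itgb3, which is 6.25% against 3.03% of the 14557 genes tested, and 1 rose, Lama3, which is 3.125% against 0.852%. At an unadjusted p under 0.05 there were 11 of 32 lower and 1 higher, where 14.3% and 12.4% of all genes tested were. The fold changes were below 0 for 26 and above 0 for 6, with a median of -0.58 against 0.01 over all genes tested, and this median was -0.25 without GO replicate 1 and -0.83 without STOP replicate 2. Both STOP libraries lay below both GO libraries for 18 of the 32 and above for 3, where 29.6% and 31.0% of all genes tested did so. The count of chains called lower was 1 without GO replicate 1, 4 without GO replicate 2, 1 without STOP replicate 1 and 5 without STOP replicate 2, and it was 0 with the replicate number as a block. DESeq2 called 6 chains lower (Itga1, Itga2, Itga2b, Itga4, Itgb3 and Lamb1) and 1 higher (Lama3), against 4.68% and 1.47% of all genes with an adjusted p.

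Itga2, the alpha2 chain of a collagen receptor, had the largest fold of the 3 called chains. It was 9.20 and 8.31 CPM in the GO libraries and 2.57 and 2.93 CPM in the STOP libraries. The 2 groups lay far apart relative to their spread, and the fall was 1.67 on the log2 scale (log2 fold change -1.67 ± 0.32, adjusted p = 0.0265, edgeR), and it was called without GO replicate 2 (adjusted p = 0.0398) and not without GO replicate 1 (0.134), STOP replicate 1 (0.164) or STOP replicate 2 (0.0571). Itga1, the alpha1 chain, was 47.5 and 33.1 CPM in GO and 12.7 and 23.1 CPM in STOP. Its log2 fold change was -1.18 ± 0.33 with an adjusted p of 0.0935 by edgeR and 0.00734 by DESeq2. The 2 genes are neighbours on mouse chromosome 13 (build mm10), Itga2 at 114833081 to 114932100 and Itga1 at 114953096 to 115101964, both on the minus strand with 21.0 kb between them. The other collagen-binding chains were low, Itga10 at 2.83 and 4.04 CPM in GO and 2.37 and 2.04 CPM in STOP, and Itga11 at 1.06 CPM or less in all 4 libraries and not tested.

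Promoters of 23 of the 37 chains were matched by symbol in RefSeq (build GRCm38.p6, the same assembly as mm10), each a window from 250 bases before to 50 bases after a start site. Those of Itga2 and Itga1 are given first because both neighbouring genes had lower values in STOP, and those of Itga5 and Itga2b because these RGD receptor chains did so too. Capitals mark matches, on either strand, to motifs searched by letters: the ETS motifs CCGGAA and CAGGAA, the AP-1 motif TGAGTCA, the GATA motif AGATAA, the TATA box TATAAA, the GC box GGGCGG and CCAAT.
Itga2, chr13:114932051-114932350, minus strand: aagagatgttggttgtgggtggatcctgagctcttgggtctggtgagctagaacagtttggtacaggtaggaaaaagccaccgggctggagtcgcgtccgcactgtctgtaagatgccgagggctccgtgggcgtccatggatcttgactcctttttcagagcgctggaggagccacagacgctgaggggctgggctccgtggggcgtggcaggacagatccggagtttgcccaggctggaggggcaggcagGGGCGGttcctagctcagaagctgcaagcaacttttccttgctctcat
Itga1, chr13:115101915-115102214, minus strand: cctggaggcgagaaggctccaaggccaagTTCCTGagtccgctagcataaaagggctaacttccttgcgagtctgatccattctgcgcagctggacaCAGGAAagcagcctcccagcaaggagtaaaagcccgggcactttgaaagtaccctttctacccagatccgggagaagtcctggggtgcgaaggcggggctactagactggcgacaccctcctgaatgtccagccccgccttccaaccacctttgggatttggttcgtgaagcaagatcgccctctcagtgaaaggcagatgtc
Itga5, chr15:103366742-103367041, minus strand: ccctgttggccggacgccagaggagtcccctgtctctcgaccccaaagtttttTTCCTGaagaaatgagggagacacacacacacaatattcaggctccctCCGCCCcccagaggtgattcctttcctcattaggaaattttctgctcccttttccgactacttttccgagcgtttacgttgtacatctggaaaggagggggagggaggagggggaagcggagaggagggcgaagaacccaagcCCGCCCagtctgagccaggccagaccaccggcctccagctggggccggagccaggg
Itga2b, chr11:102469834-102470133, minus strand: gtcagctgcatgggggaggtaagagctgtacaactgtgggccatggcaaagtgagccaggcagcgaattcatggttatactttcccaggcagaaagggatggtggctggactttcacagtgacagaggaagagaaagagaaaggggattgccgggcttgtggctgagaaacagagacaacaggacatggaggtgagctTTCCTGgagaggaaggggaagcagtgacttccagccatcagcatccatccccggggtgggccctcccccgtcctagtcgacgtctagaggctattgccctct
The Itga2 window held a GC box at base 3 after the start and no other searched motif. The Itga1 window held CAGGAA on both strands, at bases -221 and -153, the Itga5 window held it once at -197 beside 2 GC boxes, and the Itga2b window held it once at -52. CAGGAA or its complement was found in 30.6% of all 32851 promoters of this length and GGGCGG in 35.7%, so these matches are common. A match describes letters only.

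Among the receptors for fibronectin and other RGD proteins, Itgb3, the beta3 chain of the vitronectin receptor, was 58.4 and 68.1 CPM in GO and 28.2 and 34.5 CPM in STOP. All GO values exceeded all STOP values, and the fall was just past the fold threshold (log2 fold change -1.01 ± 0.17, adjusted p = 0.0179, edgeR). It was no longer called without GO replicate 2 (-0.90), without STOP replicate 1 (-0.85, adjusted p = 0.128) or on RSEM expected counts (-0.99). Itga5, the alpha5 chain of the fibronectin receptor, was 234 and 188 CPM in GO and 95.0 and 119 CPM in STOP. Its log2 fold change of -0.98 ± 0.17 had an adjusted p of 0.0211 (edgeR) and stopped just short of the fold threshold that Itgb3 passed. Itga2b, the platelet alpha chain that pairs with beta3, was 19.1 and 27.6 CPM in GO and 8.60 and 3.75 CPM in STOP (log2 fold change -1.90 ± 0.42, adjusted p = 0.0526 by edgeR and 0.000177 by DESeq2). The 9 platelet and megakaryocyte markers summed to 12.0 and 13.6 CPM in GO and 3.79 and 3.75 CPM in STOP, and their part in the Itga2b values was not tested.

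The other main RGD chains had overlapping groups. Itgav was 226 and 180 CPM in GO and 194 and 200 CPM in STOP (log2 fold change -0.04 ± 0.15), and Itgb5 was 74.1 and 62.1 CPM in GO and 61.6 and 85.8 CPM in STOP (0.11 ± 0.19). Both log2 values changed sign when single libraries were left out. Per length, Itga5 exceeded Itgav 1.65- and 1.67-fold in the 2 GO libraries and stood at 0.797 and 0.969 of it in the STOP libraries. The Itgb3 to Itgb5 ratio was 0.386 and 0.557 in GO and 0.225 and 0.207 in STOP. Itga8, an RGD-binding chain of mesenchymal cells, was 9.56 and 3.47 CPM in GO and 2.303 and 16.9 CPM in STOP, high in the same libraries, GO replicate 1 and STOP replicate 2, in which the fibroblast markers were high.

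The chains of the laminin-binding receptors Itga6, Itga3, Itgb1, Itgb4 and Itga7 were not called. Itga6 was 254 and 262 CPM in GO and 224 and 223 CPM in STOP (log2 fold change -0.20 ± 0.13, adjusted p = 0.345, edgeR). Itga3 was 97.6 and 67.8 CPM in GO and 52.5 and 59.0 CPM in STOP (-0.57 ± 0.19, adjusted p = 0.119). The STOP values were the lower ones for both, by less than the thresholds ask. The common beta chain Itgb1 was 671 and 558 CPM in GO and 377 and 620 CPM in STOP, with overlapping groups (-0.30 ± 0.25). Itgb4, the beta partner of alpha6 in hemidesmosomes, was 16.2 and 9.28 CPM in GO and 15.0 and 9.69 CPM in STOP. Itga7 also overlapped between the groups, with a log2 fold change of -0.48 ± 0.35.

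Itga4, whose protein binds VCAM1 and fibronectin, depended on how reads were counted. By HTSeq it was 9.499 and 3.79 CPM in GO and 1.69 and 2.53 CPM in STOP, with a log2 fold change of -1.67 ± 0.51 (adjusted p = 0.0958 by edgeR and 0.0487 by DESeq2). By RSEM, which also shares out reads with several alignments, it was 3.82 and 2.92 TPM in GO and 2.62 and 2.41 TPM in STOP, and the fold change on expected counts was -0.27 ± 0.21 (adjusted p = 0.450, edgeR). Itga9, a relative of alpha4, was 68.5 and 55.9 CPM in GO and 40.6 and 57.2 CPM in STOP. The leukocyte chains were scarce: Itgal, Itgam, Itgae and Itgb2 lay between 0.244 and 6.23 CPM, Itgb7 between 8.50 and 16.4 CPM, and none was called. The log2 fold changes of Itgam and Itgb2 were -1.54 ± 0.69 (adjusted p = 0.202, edgeR) and -1.15 ± 0.65 (0.295). Itgax had 3 counts in GO replicate 1 and 0 elsewhere, and Itgad had 0 in all 4 libraries, which allows up to 0.177 to 0.244 CPM per library. Itgb6 was at most 0.404 CPM, and Itgb8 was 2.83 and 0.807 CPM in GO and 0.203 and 1.06 CPM in STOP.

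The laminin chains of sprout ECs divided by chain. Lama1, the embryonic alpha chain, was 436 and 244 CPM in GO and 76.7 and 146 CPM in STOP. Lama4, the endothelial alpha chain, was 171 and 130 CPM in GO and 29.5 and 71.8 CPM in STOP, and Lamb1 was 713 and 437 CPM in GO and 200 and 296 CPM in STOP. For each of these 3 chains both STOP libraries were below both GO libraries. The log2 fold changes were -1.62 ± 0.48, -1.57 ± 0.51 and -1.21 ± 0.30, beyond the fold threshold but with adjusted p of 0.147, 0.174 and 0.0824 (edgeR; 0.000257 for Lamb1 by DESeq2, which called it), with wide gaps between the libraries of a group. Within each group the library with the high fibroblast markers, GO replicate 1 and STOP replicate 2, had the higher value of all 3. The 10 mural markers, those of pericytes and smooth muscle, were also higher there, at sums of 701 and 470 CPM against 307 CPM in GO replicate 2 and 281 CPM in STOP replicate 1. The part of these cells in the laminin values was not tested. The 10 endoderm markers summed to 312 and 212 CPM in GO and 63.6 and 111 CPM in STOP, and 3 of the 9 tested, Afp, Gata4 and Sox17, were lower past both thresholds. Of these Gata4 was 115 and 79.8 CPM in GO and 19.0 and 27.5 CPM in STOP, and Afp was at most 3.39 CPM. Sox17 is also a gene of arterial ECs, at 99.4 to 246 CPM in the sorted tumor ECs. Of the 9 endoderm markers tested, 8 had log2 fold changes below 0 and 1 above. The part of endoderm RNA in the Lama1 values was not tested.

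Lama3 went the other way, and Lama5, Lamc1 and Lamb2 differed less. Lama5, the second endothelial alpha chain, was 261 and 202 CPM in GO and 282 and 149 CPM in STOP (log2 fold change -0.10 ± 0.34). Lamc1, the gamma chain of most laminins, was 730 and 563 CPM in GO and 447 and 553 CPM in STOP (-0.37 ± 0.18, adjusted p = 0.237, edgeR), and Lamb2 was 70.6 and 50.3 CPM in GO and 39.6 and 49.1 CPM in STOP. Lama3, a laminin alpha chain of epithelia, was 9.32 and 9.04 CPM in GO and 24.9 and 15.9 CPM in STOP. It was the only chain of the 37 to rise past both thresholds by edgeR (log2 fold change 1.15 ± 0.27, adjusted p = 0.0487), and it was not called with DESeq2 size factors (adjusted p = 0.0531), on RSEM counts (0.0648) or without GO replicate 1, GO replicate 2 or STOP replicate 1. The 8 epithelial markers summed to 661 and 603 CPM in GO and 1025 and 784 CPM in STOP. Epcam, Cdh1 and Cldn7 were higher in both STOP libraries, the other 4 tested, all keratins, had log2 fold changes below 0, and none of the 7 passed both thresholds. All 8 pluripotency markers were also higher in both STOP libraries, as were 31.0% of all genes tested. The part of epithelial or pluripotent RNA in the Lama3 values was not tested. The beta3 chain, its partner in epithelia, did not rise with it. Lamb3 was 2.48 and 1.13 CPM in GO and 0.610 and 0.326 CPM in STOP (-1.93 ± 0.64, adjusted p = 0.112), the largest fold of the laminin chains tested. Lama2 and Lamc3 were minor chains here, Lama2 at 3.13 and 1.53 CPM in GO and 0.677 and 1.39 CPM in STOP, and Lamc3 at 1.12 and 0.404 CPM in GO and 0.271 and 0.733 CPM in STOP and not tested.

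In the GO libraries Lama1 made up 46.7% and 39.0% of the summed alpha chain level per length, Lama4 29.2% and 33.3% and Lama5 22.9% and 26.2%. In STOP these shares were 20.2% and 36.4% for Lama1, 12.4% and 28.7% for Lama4 and 61.2% and 30.9% for Lama5, and Lama3 took 6.00% and 3.68% against 0.902% and 1.34% in GO. These shares are a description and were not tested.

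In tumor ECs none of the 31 chains tested passed the thresholds in either direction by edgeR, which called 0.00765% of 13073 genes lower (Apln alone) and 0% higher. DESeq2 called none either, against 0.635% of all genes lower and 0.128% higher, but it gave no p for Lama2 and Lamc3. At an unadjusted p under 0.05 edgeR gave 2 of the 31 chains lower, Lama2 and Lamc3, and 1 higher, Lama3, where 2.94% and 1.87% of all genes tested were. Fold changes were below 0 for 14 and above 0 for 17, with a median of 0.04 against -0.03 for all genes tested. No chain had groups that did not overlap, which 1.27% of all genes did toward lower and 1.06% toward higher values.

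The abundant receptor chains overlapped between the groups. Itga6 ranged from 278 to 624 CPM in wild-type libraries (median 463) and was 315, 440 and 603 CPM in depleted ones, and Itga5 ranged from 235 to 408 CPM (median 297) against 301, 469 and 272 CPM. Itga3 ranged from 103 to 246 CPM (median 148) against 108, 162 and 230 CPM. Their log2 fold changes were -0.0047 ± 0.30, 0.15 ± 0.28 and -0.01 ± 0.34, each smaller than its SE. Itgb1 ranged from 732 to 1012 CPM (median 852) against 559, 784 and 794 CPM (-0.29 ± 0.25), and Itgb3 from 155 to 267 CPM (median 188) against 237, 247 and 287 CPM (0.37 ± 0.27). Itgb4 ranged from 43.0 to 200 CPM (median 84.4) against 197, 163 and 53.6 CPM.

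The collagen receptor chains that were low in STOP sprouts were not low here. Itga2 ranged from 39.9 to 100 CPM in wild-type libraries (median 64.6) and was 95.3, 58.6 and 173 CPM in depleted ones (log2 fold change 0.71 ± 0.37, adjusted p = 1.00, edgeR, and 0.21 without depleted replicate 3). Itga1 ranged from 41.0 to 134 CPM (median 111) against 108, 58.7 and 136 CPM (0.04 ± 0.40). The difference between the 2 experiments was not tested, since they differ in cells, protocol and treatment.

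Of the alpha4 beta1 gamma1 laminin, Lama4 ranged from 344 to 814 CPM in wild-type libraries (median 448) and was 592, 389 and 541 CPM in depleted ones. Lamb1 ranged from 319 to 601 CPM (median 401) against 511, 487 and 603 CPM, and Lamc1 from 438 to 715 CPM (median 520) against 629, 725 and 901 CPM (log2 fold change 0.49 ± 0.25, adjusted p = 1.00, edgeR). Lama5 ranged from 148 to 374 CPM (median 238) against 174, 205 and 267 CPM. Lama4 exceeded Lama5 per length in all 9 libraries, by 1.73- to 7.55-fold, whereas in sprouts it did so in the GO libraries by 1.28- and 1.27-fold and not in the STOP libraries, at 0.203 and 0.931 of Lama5.

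The chains with the lowest p in tumor ECs were minor ones. Lama3 was 0.521 to 19.1 CPM in wild-type libraries (median 10.8) and 51.8, 12.3 and 42.4 CPM in depleted ones. Depleted replicate 2 lay inside the wild-type range, and the log2 fold change was 1.75 ± 0.73 (adjusted p = 0.986, edgeR). Lama2, the alpha chain of muscle and mesenchymal basement membranes, was 115 CPM in wild-type replicate 2, 0 to 4.93 CPM in the other wild-type libraries and 0.170, 0.141 and 0 CPM in depleted ones, where only 1, 2 and 0 reads were counted. The fitted log2 fold change of -7.45 ± 2.63 (adjusted p = 0.957, edgeR) depends on these few reads and was -4.09 without wild-type replicate 2. Lamc3 was 61.8 CPM in wild-type replicate 2, 0.174 to 3.96 CPM in the other wild-type libraries and 1.53, 0.915 and 1.34 CPM in depleted ones (-3.27 ± 1.53, adjusted p = 1.00, edgeR, and -0.84 without that library). Lama1 was 0.884 to 5.37 CPM in wild-type libraries (median 1.97) and 9.86, 0.141 and 0 CPM in depleted ones, and Lamb3, which was not tested, 0 to 9.14 CPM (median 1.09) against 1.36, 0.211 and 0 CPM.

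Wild-type replicate 2 was the library with 5291 CPM of fibroblast markers, all 8 of which had counts in it. Dcn, which encodes the fibroblast proteoglycan decorin, was 2097 CPM there and 0.141 to 159 CPM in the other 8 tumor libraries. The same library had the highest values of Itgb5 at 45.9 CPM, Itgax at 11.4 CPM, Itgae at 6.25 CPM and Lamb2 at 272 CPM. Its 10 mural markers also had the highest sum of the 9 libraries, at 481 CPM against 272 CPM or less in the others, and 9 of the 10 had log2 fold changes below 0 in depleted libraries (median -1.34, 2 with an unadjusted p under 0.05, 0 called, edgeR). The part of fibroblast or mural RNA in these values was not tested, and Lama2 and Lamc3 lost their unadjusted p under 0.05 without that library.

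**Figure D3:**
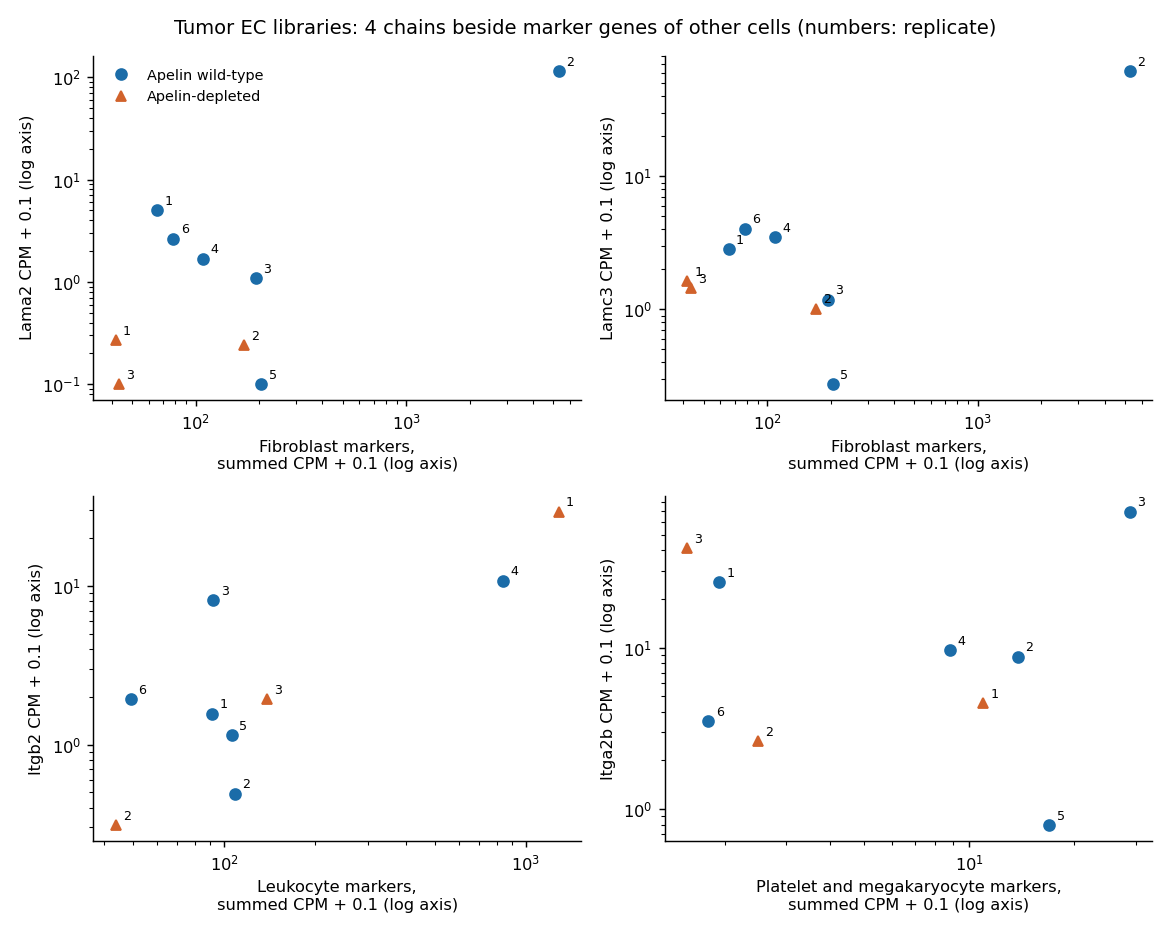
CPM + 0.1 of Lama2, Lamc3, Itgb2 and Itga2b (vertical, log axes) against the summed CPM + 0.1 of fibroblast, leukocyte or platelet markers (horizontal, log axes) in the 9 tumor EC libraries, numbered by replicate (circles, wild-type; triangles, depleted). Wild-type replicate 2 stands alone at upper right for Lama2 and Lamc3, depleted replicate 1 has the highest Itgb2 and leukocyte sum, and depleted replicate 3 has high Itga2b with few platelet markers.

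Chains of blood cells were high in single libraries of both groups, and none was called. Itgb2, the beta chain of leukocyte integrins, was 29.2 CPM in depleted replicate 1, whose 10 leukocyte markers summed to 1286 CPM, and 10.7 CPM in wild-type replicate 4, whose sum was 840 CPM, and lay between 0.211 and 8.05 CPM in the other libraries, whose sums were 43.5 to 138 CPM. All 8 leukocyte markers tested had log2 fold changes above 0, with a median of 1.18, and none had an unadjusted p under 0.05. Itgam was 0.393 to 8.54 CPM in wild-type libraries (median 1.94) and 9.35, 1.90 and 12.4 CPM in depleted ones (log2 fold change 1.52 ± 1.10, adjusted p = 1.00, edgeR). Itga4 was 14.1, 0.0704 and 6.21 CPM in depleted libraries and 0.174 to 4.76 CPM in wild-type ones (median 0.338), with a log2 fold change of 2.70 ± 1.45 (adjusted p = 1.00, edgeR). Itga2b was 69.2 CPM in wild-type replicate 3, whose 9 platelet markers had the highest sum at 28.8 CPM, most of it Gp1bb at 18.1 CPM, and 41.2 CPM in depleted replicate 3, where they had the lowest sum at 1.46 CPM. In wild-type replicate 5, with the lowest Itga2b at 0.695 CPM, the platelet markers summed to 16.85 CPM, nearly all of it Pf4. The wild-type median of Itga2b was 9.11 CPM, and depleted replicates 1 and 2 were at 4.42 and 2.53 CPM. Cells positive for the leukocyte antigen CD45 were gated out in the sort, and the part of leukocyte or platelet RNA was not tested. The remaining chains were low: Itga7, Itga8, Itga10, Itga11, Itgad, Itgae, Itgal, Itgam, Itgb6 and Itgb8 were at most 12.4 CPM in any tumor library, and Itgb8 had 0 counts in all 3 depleted libraries, which allows up to 0.211 to 0.510 CPM per library. Of the chains between these and the abundant ones, Itgav ranged from 46.5 to 151 CPM in wild-type libraries (median 98.2) against 115, 107 and 89.3 CPM, Itga9 from 18.9 to 120 CPM (median 69.1) against 107, 86.0 and 88.0 CPM, Itgb5 from 0.174 to 45.9 CPM (median 5.58) against 7.65, 4.995 and 2.44 CPM, and Itgb7 from 7.91 to 71.1 CPM (median 22.5) against 65.4, 1.55 and 0.853 CPM.

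**Figure D4:**
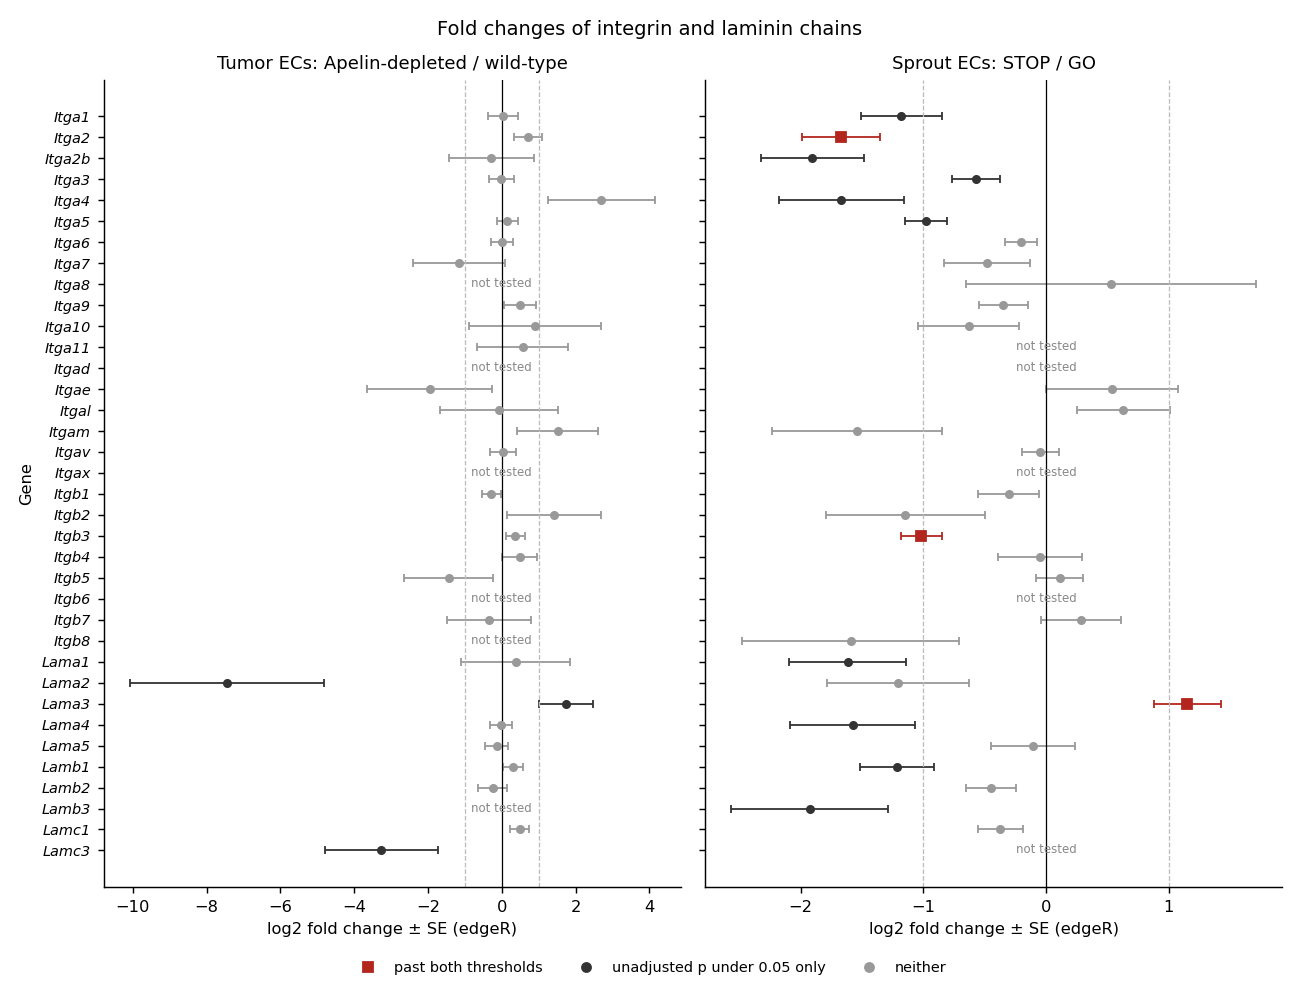
Log2 fold change ± SE by edgeR of the tested ones of 36 chains in tumor ECs (left, depleted over wild-type) and sprout ECs (right, STOP over GO), with dashed lines at the fold threshold of 1 and red squares for chains past both thresholds. In sprout ECs 25 of 31 points lie left of 0, with Itga2 and Itgb3 past the thresholds and Lama3 past them at right, and in tumor ECs no chain passes.

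Genes that act with these chains were counted from lists chosen with earlier results of these data known. Of 38 tested genes of the adhesion machinery, which links integrins to actin and signaling, 5 fell in STOP sprouts and 0 rose, namely Fyn, Parvb, Zyx, Tns2 and Fermt3, which is 13.2% against the 3.03% of all genes tested that were lower. Fyn, a Src family kinase, was 95.3 and 89.9 CPM in GO and 33.9 and 44.7 CPM in STOP (log2 fold change -1.24 ± 0.17, adjusted p = 0.00999, edgeR). Zyx, which encodes the focal adhesion protein zyxin, was 158 and 119 CPM in GO and 54.9 and 65.8 CPM in STOP. Of 26 other integrin ligands 5 fell (19.2%), Tgfb1, Icam2, Adam15, Edil3 and Vwf, and 0 rose. Tgfb1, whose latent form is bound by alphav integrins, was 135 and 104 CPM in GO and 29.2 and 36.7 CPM in STOP (-1.86 ± 0.19, adjusted p = 0.00437). Several of these, such as Icam2 and Vwf, are genes of endothelial cells, and the endothelial marker sums above moved the same way. The part of endothelial RNA in the values of the partner genes was not tested. Of 19 basement membrane partners 1 fell (5.26%) and 0 rose, the 1 being Nid1, the laminin linker nidogen-1, at 684 and 483 CPM in GO and 200 and 303 CPM in STOP (-1.21 ± 0.26, adjusted p = 0.0492). The median log2 fold changes of the 3 lists were -0.35, -0.60 and -0.67. The count of 11 partner genes lower was 4 without GO replicate 1, 3 without STOP replicate 1 and 17 without STOP replicate 2, and it was 1 with the replicate number as a block. The count higher was 0, and 2 without GO replicate 2.

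In tumor ECs none of the tested partner genes was called by edgeR, or by DESeq2 where it gave an adjusted p. By edgeR at an unadjusted p under 0.05 there were 4 higher and 1 lower among the 38, 16 and 20 genes tested of the 3 lists, where 1.87% and 2.94% of all genes tested were. The most abundant ones had overlapping groups. Sparc, a matricellular protein of basement membranes, was 12337 ± 4041 CPM (SD, n = 6) in wild-type and 11497 ± 5630 CPM (SD, n = 3) in depleted libraries, and Col4a2 was 3753 ± 492 and 4465 ± 267 CPM. Cd81 and Cd9, tetraspanins that associate with integrins, had log2 fold changes of 0.23 ± 0.36 and -0.07 ± 0.25. F11r and Icam1, ligands of leukocyte integrins, had 0.38 ± 0.33 and 0.79 ± 0.34.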

How the data were processed

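RNA-Seq was measured in 9 tumor EC and 4 sprout EC libraries, grouped by their labels. For tumor ECs the authors aligned reads to mm10 and deposited whole-number counts per gene from featureCounts (Subread 1.6.2). For sprout ECs the authors deposited HTSeq 0.6.1p1 counts after STAR 2.5.0a, and RSEM 1.2.25 expected counts and TPM. Closing lines that name no gene were left out. Strand was not stated for either counting, so reads of overlapping genes cannot be told apart. Nothing was pooled.

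From the counts, edgeR 4.0.16 in R 4.3.3 was fitted on all genes of each set (TMM, filterByExpr with a minimum count of 10, robust quasi-likelihood test, Benjamini-Hochberg adjustment over all genes tested), with thresholds of adjusted p 0.05 and log2 fold change 1 after the study's methods. SE is the fold change over the root of F. CPM used TMM-scaled library sizes, and CPM per kb the gene length of RSEM. Fits were tested on simulated counts with 200 changed genes, where the tumor fit missed many changes larger than the fold threshold. Values in every library (for the 6 wild-type tumor libraries the lowest, median and highest) are given for chains past the thresholds or with p under 0.05 in either set and for the 3 highest per class; further values were chosen after they were seen. Alternatives were DESeq2 1.42.0, its size factors in edgeR, other filters, the replicate block, rounded RSEM counts, no fold threshold and each library left out. The pairing check gave correlations between same-numbered libraries of -0.0709, 0.0574 and -0.14 in tumor and -0.434 in sprout ECs, so the numbers were not taken as pairs. In sprout ECs the crossed numbers gave 0.434, of the same size by construction with n = 2 per group. The replicate block therefore models a pairing that these correlations did not show. Replicates differed by more than counting noise. The chains and lists were chosen with earlier results of these data known. Gene positions are from GENCODE M21. 1 chain is counted among the 37 but not reported here.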

Additional observations from a re-analysis of the deposited data

Results flagged for a closer look

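In 36 chains, each over the 6 wild-type tumor libraries, 13 had a library whose gap to the next spanned most of the group's range. Chance gives about 1 in 20 for normally distributed values, but most of these chains were low and skewed and several share a library, so that rate is no yardstick for the 13. In wild-type replicate 2, Lama2 was 114.51 CPM (next 4.93 CPM), Lamc3 61.75 CPM (next 3.96 CPM) and Itgax 11.432 CPM (next 1.08 CPM). In replicate 4, whose leukocyte markers were the highest of the wild-type libraries, Itgal was 9.3305 CPM (next 0.879 CPM), Itgam 8.5364 CPM (next 2.43 CPM) and Itga4 4.7645 CPM (next 0.489 CPM). In replicate 3, Itga2b was 69.244 CPM (next 25.4 CPM) and Itga10 5.5003 CPM (next 1.56 CPM). In replicate 1, Lamb3 was 9.1366 CPM, Itga8 3.2892 CPM and Itgb8 1.4619 CPM. Itga7 was 8.8594 CPM in replicate 5 and Itgb6 2.2622 CPM in replicate 6.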

How the results depend on the processing

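In tumor ECs the count of chains past the thresholds stayed at 0 in both directions under every alternative run, where DESeq2 gave no adjusted p for Lama2, Lamc3, Itgax and Itgb8. A count of 0 in tumor ECs does not show that no chain changed. Apln kept its direction and its call there and was called nowhere in sprout ECs. In sprout ECs the chains called lower numbered 2, and 6 with DESeq2, 4 with no filter on low counts, 1 on RSEM expected counts, 0 with the replicate block and 1 to 5 with single libraries left out. The chains called higher numbered 1, and 0 with DESeq2 size factors, with the replicate block and on RSEM expected counts, and 0 to 1 with single libraries left out. With the replicate numbers crossed, an alternative added after seeing the data, 10 chains were called lower and 1 higher, and 933 and 302 genes of all tested. All genes called lower and higher in sprout ECs numbered 441 and 124, and 41 and 3 with the replicate block, 135 to 548 and 12 to 341 with libraries left out, and 197 and 222 higher with DESeq2 and with no filter; in tumor ECs DESeq2 called 94 lower and 19 higher, and no filter 7 and 9.

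Signs near 0 turned in tumor ECs with the replicate block for Itga1 (-0.30), Itga3 (0.18) and Itga6 (0.022), and without the filter for Itga3 (0.00024). The log2 fold change of Lama1 moved further with the block, from 0.38 ± 1.48 to -2.08. The cause of these turns was not tested. With single libraries left out the log2 values ranged from -0.24 to 0.31 for Itga1, -2.50 to 0.75 for Itga2b, -0.31 to 0.23 for Itga3, -0.13 to 0.30 for Itga5, -0.27 to 0.20 for Itga6, -4.79 to 0.96 for Lama1 and -0.14 to 0.17 for Lama4. In sprout ECs they ranged from -0.19 to 0.13 for Itgav, -0.72 to 0.032 for Itgb1 and -0.16 to 0.35 for Itgb5. With 1 library left in a group, that library is assumed to vary like the others. Libraries of 100 cells limit what can be read of chains under about 10 CPM.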
